A study of Homo sapiens with 4 samples.

Results

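Interferon regulatory factor genes (IRF genes) were followed in maps of γH2AX, the phosphorylated form of histone H2AX and a mark of chromatin around DNA double-strand breaks. The members were 8 genes given by name, IRF1, IRF2, IRF3, IRF4, IRF5, IRF7, IRF8 and IRF9, of 19829 protein-coding genes considered. All were found in the RefSeq gene table. The maps were made by CUT&Tag, in which an antibody brings a transposase to chromatin so that nearby DNA is cut and tagged, in HepG2, a human liver cancer line. The design text asks where lipid overload places such breaks relative to mock treatment.

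The groups were lipid-overloaded cells (titled PAOA) and mock-treated cells (titled DMSO), each with 1 γH2AX library and 1 control IgG library. Every assay used 100000 HepG2 cells and 14 cycles of PCR. Both γH2AX peak lists were used, while the 2 IgG samples are not analysed here, so no background measured the same way stands beside the values. With 1 library per group no difference has a replicate check, and no test between the conditions was made. The lipid-overload list held 27296 peaks and the mock list 8542. By their genome backgrounds the first library was 2.62 times as deep as the second. Peak lists hold no expression, so the liver identity of the cells could not be checked against expressed markers.

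IRF proteins are transcription factors that bind interferon-responsive DNA through a shared DNA-binding domain. IRF3 and IRF7 switch on interferon genes when a sensor of foreign nucleic acid activates kinases such as TBK1. IRF9 works with STAT2 in a complex that carries the signal from interferon receptors to target genes. IRF1 is itself induced by interferon-gamma, and IRF2 can oppose it at the same sites. IRF4, IRF5 and IRF8 are best known from blood cells: IRF4 from B and plasma cells, IRF5 from Toll-like receptor signalling and IRF8 from myeloid and dendritic cells.

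The sequences at the start sites of IRF1 and IRF9 are shown because a lipid-overload peak covered each of them, and that of IRF4 because it is as rich in G and C as that of IRF1 but had no peak. Each runs 5′ to 3′ in the direction of transcription, from 250 bases before the start site to 50 bases from it on (RefSeq, GRCh38.p14). Capitals mark matches to the gamma-activated site (GAS), TTCNNNGAA, which reads the same on both strands and is a STAT binding motif. IRF1 lies at chr5:132490724-132491023 on the minus strand, IRF9 at chr14:24161015-24161314 on the plus strand and IRF4 at chr6:391502-391801 on the plus strand.
IRF1: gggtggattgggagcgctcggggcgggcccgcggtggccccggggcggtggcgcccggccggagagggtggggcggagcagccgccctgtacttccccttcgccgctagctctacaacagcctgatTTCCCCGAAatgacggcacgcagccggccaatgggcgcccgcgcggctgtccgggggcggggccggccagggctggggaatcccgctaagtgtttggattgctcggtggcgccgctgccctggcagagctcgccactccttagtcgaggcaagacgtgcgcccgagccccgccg
IRF9: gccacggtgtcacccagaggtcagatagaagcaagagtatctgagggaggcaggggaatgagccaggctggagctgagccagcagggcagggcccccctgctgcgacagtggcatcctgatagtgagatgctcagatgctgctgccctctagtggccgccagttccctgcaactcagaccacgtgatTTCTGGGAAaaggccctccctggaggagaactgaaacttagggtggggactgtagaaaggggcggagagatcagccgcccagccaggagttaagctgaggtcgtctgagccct
IRF4: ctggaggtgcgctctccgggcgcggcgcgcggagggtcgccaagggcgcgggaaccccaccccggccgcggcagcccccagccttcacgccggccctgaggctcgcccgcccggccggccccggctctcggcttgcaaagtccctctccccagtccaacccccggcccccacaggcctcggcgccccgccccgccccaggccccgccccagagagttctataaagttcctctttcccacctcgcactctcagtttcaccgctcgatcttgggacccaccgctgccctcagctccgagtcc

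At gene ends, meaning within 1 kb of either end of the gene, lipid-overloaded cells had a peak at 2 of the 8 members, IRF1 and IRF9. Over all protein-coding genes the share was 43.4%. Mock cells had a gene-end peak at 0 of the 8, where the share over all genes was 13.4%. Both marked members were thus in the class listed in lipid overload only, which held 31.4% of all genes. Off the ends but inside the gene, lipid overload listed a peak at IRF3 and IRF4, 2 of 8, against 27.8% of all genes, and mock at 0 of 8, against 12.7%. With ends and interior joined, 4 of 8 members were listed in lipid overload, where 58.0% of all genes were, and 0 of 8 in mock, where 24.2% were. At gene ends of 1 kb the share of members listed was below that of all coding genes in both lists, over only 8 genes and with no test. With gene ends of 3 kb it was 4 of 8 in lipid overload, against 50.9%, and 0 of 8 in mock, against 17.0%. Inside the genes the lipid-overload shares were close, 25.0% of members against 27.8%.

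IRF1, the interferon-gamma induced member, carried the highest peak of the 8 genes. In lipid overload it had 25 fragments over the summit (16.2 to 36.9, exact Poisson interval at 95%, covering counting error only) in a peak of 296 bp at chr5:132490754-132491049, and in mock no peak was listed there. Fragments over the summit were worked out from the fold and p-value that the authors deposited for each peak. The authors' fold for the IRF1 peak was 8.93 and its −log10 q 15.78. Its summit lay at position -167 relative to the start site, and 270 of the 300 bases printed above lie within the peak. In lipid overload 1091 protein-coding genes (5.5% of all, 12.7% of those marked) had at least as many fragments at an end as IRF1. Over all marked genes the median was 12 fragments. The nearest mock peak lay 38.4 kb from IRF1 and held 3 fragments (0.619 to 8.77), the lowest number in that list.

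IRF9, the DNA-binding subunit of the interferon-stimulated complex, had a lower peak at its start. In lipid overload 11 fragments (5.49 to 19.7) stood over the summit of a 316 bp peak at chr14:24160981-24161296, and in mock no peak was listed. The summit was at position -171, close to the place it had in IRF1, and 282 bases of the printed window were covered. The same peak lies within 1 kb of the end of RNF31, a ubiquitin ligase gene, which stops 610 bp short of IRF9, so this peak cannot be given to one of these genes. With the lipid-overload list shortened to the length of the mock list, IRF1 was still listed and IRF9 was not. At least as many fragments at an end were found for 5328 genes, 61.9% of those marked, and the authors' fold was 6.27.

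**Figure D1:**
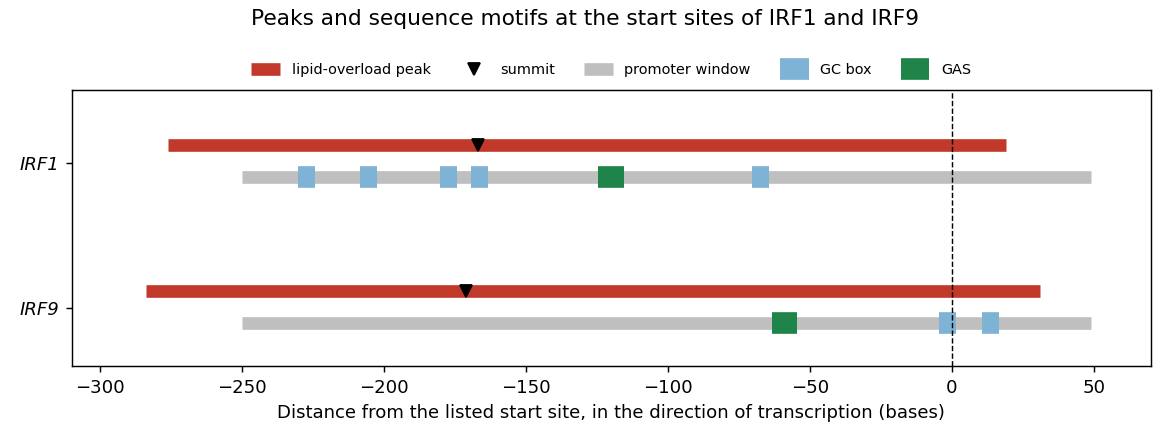
Position of the lipid-overload peak (red), its summit (triangle), GC boxes (blue) and the GAS match (green) along the promoter window (grey) of IRF1 and IRF9, in bases from the listed start site. In both genes the peak covers the start site, the summit lies at -167 or -171, and the GAS match is inside the peak.

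Both marked promoters held 1 GAS match inside the peak, TTCCCCGAA at -124 to -116 in IRF1 and TTCTGGGAA at -63 to -55 in IRF9. The other 7 listed start sites of members, 4 of IRF5, 2 of IRF8 and 1 of IRF4, held none. The listed starts of IRF5 and IRF8 lie inside these genes, past their lower-coordinate ends. For IRF8 they are at 85902830 and 85903015, in 2 overlapping windows, while the gene begins at 85899162. Sequence within 1 kb of either end of IRF8 was therefore not searched. IRF5 begins at 128937032, and its first window, 128937677-128937976, lies within 1 kb of that end. Its second window, from 128937967, does so in part. The first base of IRF5 itself lies in no window. Of 22132 promoter windows of the same length, 6.79% held a match, and among windows sharing a base with a lipid-overload peak 5.02% did. An interferon-stimulated response element core, searched on both strands as GAAA, any 2 bases, GAAA, was found in no member window and in 3.17% of all windows. The GC box GGGCGG, searched on both strands, occurred 5 times in IRF1, 2 times in IRF9 and 4 times in IRF4. The 4 windows of IRF5 held 4, 3, 0 and 0, and each of the 2 of IRF8 held 0. No IRF4, IRF5 or IRF8 window had a peak in either list. The GC box was present in 56.3% of all windows, in 79.3% of those with a lipid-overload peak and in 45.7% of those without one. A TATA box, TATAAA, was found in IRF4 at -32 to -27 and in the third IRF5 window at -188 to -183. It was found in neither IRF1 nor IRF9. Of all windows 9.46% held it, with 3.37% among those with a lipid-overload peak and 12.3% among those without one. These matches describe letters and were not tested as binding sites. RefSeq windows were matched for 5 of the 8 members, and IRF2, IRF3 and IRF7 were not among them.

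CpG content differed widely between the marked promoters. IRF1 had 36 CpG in its window and an observed over expected ratio of 0.89, in the second highest of 4 equal groups of all windows, where 47.2% shared a base with a lipid-overload peak and 13.9% with a mock peak. IRF9 had 7 CpG and a ratio of 0.265, in the lowest group, where 2.93% of the windows shared a base with a lipid-overload peak and 0.813% with a mock peak. IRF4, with 32 CpG, a ratio of 0.841 and a G+C content of 74.0%, was close to IRF1 in all these values and had no peak there in either list. The CpG ratio of these 3 promoters thus did not follow their peak heights.

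**Figure D2:**
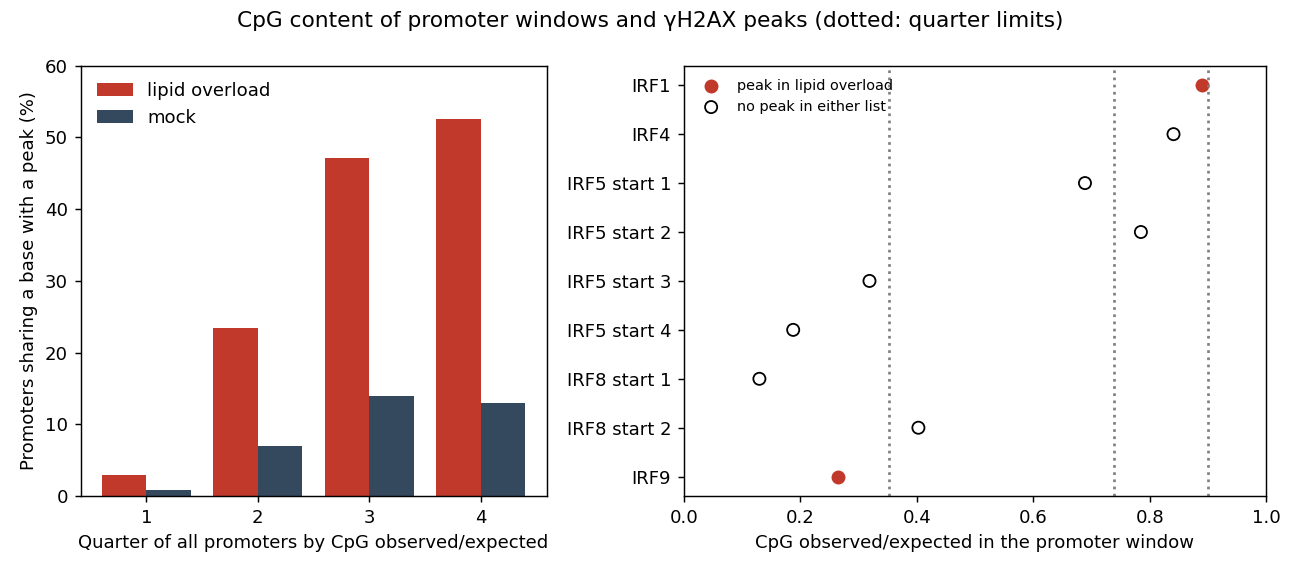
Left, share of promoter windows that share a base with a peak (%), in lipid overload (red) and mock (dark), by 4 equal groups of CpG observed over expected, lowest at 1. Right, the ratio of each listed member start site, filled where a lipid-overload peak covers it: IRF1 at 0.89 and IRF9 at 0.265 are filled and IRF4 at 0.841 is not. The listed starts of IRF5 and IRF8 lie inside these genes. The first window of IRF5 is within 1 kb of its lower-coordinate end, and those of IRF8 are farther in.

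IRF3, the latent factor that sensors of nucleic acids activate, missed the gene-end class by a small distance. In lipid overload it had 15 fragments (8.4 to 24.7) in a 268 bp peak at chr19:49664512-49664779, and in mock no peak was listed in the gene. This peak lies inside IRF3, 1078 bp from its upper end, and so 78 bases outside the 1 kb window. It is also within 1 kb of the start of BCL2L12, a gene of the BCL2 family that overlaps the upper end of IRF3, with its summit at position -572 of the nearest listed start. The peak cannot be given to one of these genes. IRF4, the B and plasma cell factor, had a single internal peak in lipid overload of 4 fragments (1.09 to 10.2) and 199 bp, at chr6:403509-403707. That is the lowest fragment number in the lipid-overload list, and no mock peak lay in the gene.

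No peak of either list touched IRF2, IRF5, IRF7 or IRF8. IRF2, the repressor, is the longest member at 86822 bp, against a median of 24474 bp for coding genes, and had none along its whole length. Its nearest lipid-overload peak, 2706 bp below the gene, held 4 fragments (1.09 to 10.2), and its nearest mock peak was 276 kb away. IRF7, the amplifier of the interferon response, is 3396 bp long and had its nearest lipid-overload peak at 5.09 kb and its nearest mock peak at 22.4 kb. For IRF5 the nearest lipid-overload peak was at 18.5 kb and the nearest mock peak at 74.0 kb. For IRF8 they were at 23.5 kb in lipid overload and 131 kb in mock. At none of the 4 listed starts of IRF5 or the 2 of IRF8 was a peak found.

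In order of summit height the marked members stood as IRF1 (25 fragments), IRF3 (15), IRF9 (11) and IRF4 (4) in lipid overload, and none was listed in mock. Neighbours in this order did not differ beyond their counting intervals. IRF1 and IRF4 did, with intervals of 16.2 to 36.9 and 1.09 to 10.2. Widths ranged less than heights: 296 bp for IRF1, 268 bp for IRF3, 316 bp for IRF9 and 199 bp for IRF4, where the median of the list was 196 bp. A peak at least as wide was found for 20.3% of the list at IRF9, 23.2% at IRF1, 28.1% at IRF3 and 48.7% at IRF4. A peak at least as high was found for 6.34% of the list at IRF1, 21.3% at IRF3 and 38.1% at IRF9.

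**Figure D3:**
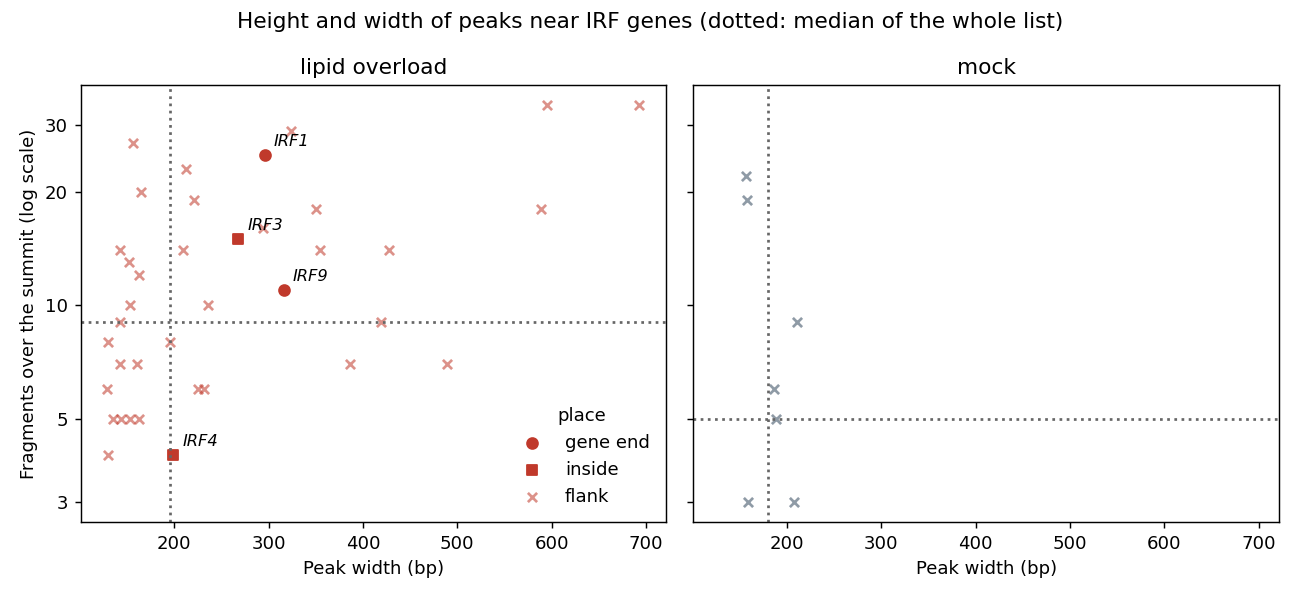
Fragments over the summit (log axis) against peak width in bp for every peak at, in or within 50 kb of a member, lipid overload on the left and mock on the right, with dotted lines at the median of the whole list. The IRF1, IRF3 and IRF9 peaks lie above both medians, IRF4 lies at the lowest height, and all mock points are flank peaks.

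With 1 library per group, depth and treatment cannot be told apart as the source of the missing mock peaks. Scaled to the mock depth, the IRF1 peak would have 9.53 fragments (6.17 to 14.1). Its own background was scaled by the ratio of genome backgrounds alone, without fragment length, from 1.91 to 0.8. At that background a mock peak needs 6 fragments to be listed. For IRF3 the scaled number was 5.72 (3.2 to 9.43) and 5 were needed, and for IRF9 4.19 (2.09 to 7.5) with 4 needed. For IRF4 it was 1.52 (0.415 to 3.9) with 3 needed. These intervals hold the counting error of the lipid-overload peak, and a mock count would have its own. The interval for IRF1 lay above its mock limit, those of IRF3 and IRF9 lay on both sides of theirs with the scaled number above it, and that of IRF4 lay on both sides with the scaled number below it.

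Around the genes, out to 50 kb beyond each end, every member had a lipid-overload peak (8 of 8, against 80.0% of all coding genes) and 5 of 8 a mock peak (52.0% of all). The counts were 38 peaks in lipid overload and 7 in mock. IRF7 had the most, 9 in lipid overload and 3 in mock, followed by IRF9 with 7 and 1, IRF3 with 6 and 1, IRF5 with 5 and 0, IRF1 with 4 and 1, IRF4 with 3 and 1, IRF8 with 3 and 0, and IRF2 with 1 and 0. The median coding gene had 2 in lipid overload and 1 in mock. Coding genes are close together around IRF9 (14 others within 50 kb), IRF3 (7) and IRF7 (7), while IRF5 has 2, IRF4 has 1 and IRF1, IRF2 and IRF8 have none there. Of these 31 neighbours, 19 (61.3%) were marked at an end in lipid overload and 5 (16.1%) in mock, beside 43.4% and 13.4% of all coding genes. These are counts of genes, not of separate peaks. Adjoining neighbours share peaks, such as PSME2 with RNF31 in lipid overload and RRAS with SCAF1 in both lists. BCL2L12 was counted through the peak inside IRF3.

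**Figure D4:**
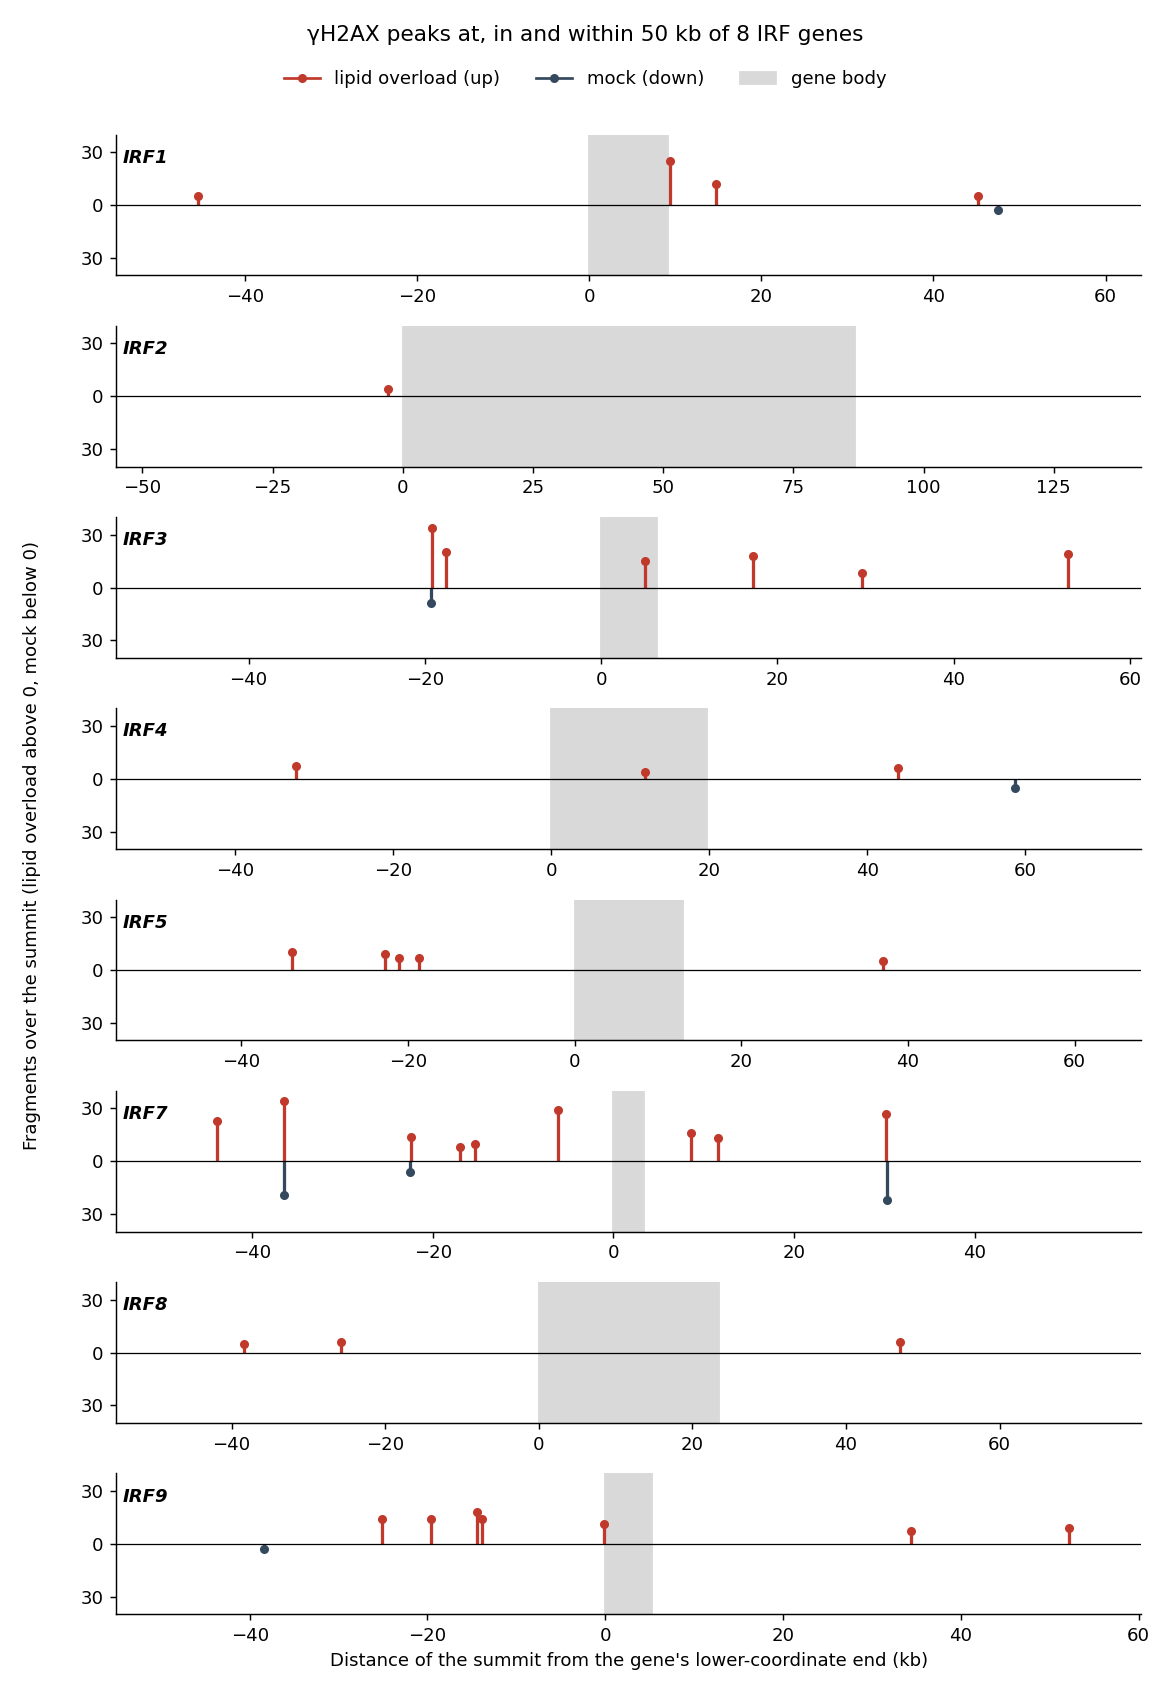
Peaks around each of the 8 genes, with the distance of the summit from the gene's lower-coordinate end in kb (scales differ between panels) and the fragments over the summit upwards for lipid overload and downwards for mock. Grey is the gene body: lipid-overload summits lie at or in IRF1, IRF3, IRF4 and IRF9, and no mock summit lies in any of the 8.

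Near IRF7 the highest lipid-overload peak had 34 fragments (23.5 to 47.5) over 693 bp, at the lower-coordinate end of PHRF1, a ubiquitin ligase gene, and at LOC124902805. The mock peak inside it had 19 fragments (11.4 to 29.7) over 158 bp, and the ratio of lipid overload to mock was 1.79 (0.992 to 3.32). A further lipid-overload peak of 29 fragments (19.4 to 41.6) lay 5.95 kb from IRF7 inside PHRF1 and had no mock counterpart. Near IRF3 the highest peak, 34 fragments over 595 bp in lipid overload and 9 (4.12 to 17.1) over 211 bp in mock, lay where RRAS, a small GTPase gene, and SCAF1 meet, with a ratio of 3.78 (1.77 to 8.96). Both intervals take in the relative depth of 2.62.

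Near IRF9 the highest lipid-overload peak, 18 fragments (10.7 to 28.4), stood where PSME2 and RNF31 meet. Peaks of 14 fragments (7.65 to 23.5) each stood at PSME1, at EMC9 and inside RNF31. PSME1 and PSME2 encode the interferon-inducible proteasome activator, and neither had a mock peak at an end. The single mock peak of this window, inside DCAF11, held 3 fragments. Near IRF1 the highest peak outside the gene, 12 fragments (6.2 to 21.0) over 163 bp in lipid overload, lay 5.5 kb above it. The highest flanking peaks of IRF5, IRF4 and IRF8 in lipid overload held 10, 7 and 6 fragments and none was at the end of a coding gene. The mock flank peak of IRF4 held 5 fragments (1.62 to 11.7).

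Other genes of the interferon system were counted by their roles, with gene-end peaks in lipid overload first and mock after it. Over all coding genes these shares were 43.4% and 13.4%. None of 9 interferon genes was marked in either list. Of 6 receptor genes 2 and 1 were marked: IFNAR1, a chain of the type I receptor, with 20 fragments (12.2 to 30.9) and 9 (4.12 to 17.1), and IFNGR1, a chain of the interferon-gamma receptor, with 19 (11.4 to 29.7) and no mock peak. Downstream of the receptors, STAT3, which carries interleukin signals, had 41 fragments (29.4 to 55.6) and 10 (4.8 to 18.4). STAT2, the partner of IRF9, had 17 (9.9 to 27.2) and 6 (2.2 to 13.1), and the receptor kinase gene TYK2 11 (5.49 to 19.7) and 5 (1.62 to 11.7).

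Upstream of the IRF proteins, 9 of 20 sensor and adaptor genes (45%) were marked in lipid overload and 1 (5%) in mock, where 43.4% and 13.4% of all coding genes were. TBK1, the kinase that activates IRF3, had 23 fragments (14.6 to 34.5) and 7 (2.81 to 14.4), and IRAK4, a kinase of Toll-like receptor signalling, 15 (8.4 to 24.7) and no mock peak. Partners and cofactors were marked at 8 of 10 genes (80%) in lipid overload and 2 of 10 (20%) in mock. IRF2BP2, a corepressor that binds IRF2, had 22 fragments (13.8 to 33.3) and no mock peak, its relative IRF2BPL 17 and 7, and the acetyltransferase gene EP300 17 and 5. Negative regulators stood at 8 of 10 (80%) in lipid overload and 1 of 10 (10%) in mock. The deubiquitinase gene CYLD had 24 (15.4 to 35.7) and no mock peak, and the phosphatase gene PTPN2 17 and 6.

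Interferon target genes were marked at 11 of 36 in lipid overload (30.6%) and 4 of 36 in mock (11.1%), near or under the shares of 43.4% and 13.4% for all coding genes. TAP1, PSMB8 and PSMB9, which serve antigen presentation and stand side by side, each had a highest peak of 20 fragments (12.2 to 30.9) in lipid overload, from 2 peaks between them. In mock TAP1 and PSMB8 shared 1 peak of 6 fragments (2.2 to 13.1). The antiviral genes BST2 and SAMHD1 had 17 and 16 fragments in lipid overload and 6 and 5 in mock. The antiviral targets MX1, OAS1, IFIT1 and RSAD2 had no gene-end peak in either list, though MX1 had 1 internal peak in lipid overload. ISG15, OASL, EIF2AK2 and ADAR, of the same list, were marked at an end in lipid overload with 8, 7, 5 and 5 fragments. They had no gene-end peak in mock. The median over the list was 0 fragments in both lists, as it was for the 8 IRF genes at their ends and for all coding genes.

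Blood cell lineage genes were marked at 4 of 14 in lipid overload (28.6%) and 0 of 14 in mock, beside 43.4% and 13.4% of all coding genes, led by SPI1, a partner of IRF4 and IRF8, with 13 fragments (6.92 to 22.2), and CD68 with 12 (6.2 to 21.0). Hepatocyte genes were marked at 1 of 13 in lipid overload (7.69%) and 0 of 13 in mock, the 1 being CEBPA with 18 (10.7 to 28.4). No pathway gene had the same pair of fragment numbers as IRF1, which 58 coding genes share. DHX58, TLR9 and CREBBP had the pair of IRF9, 11 in lipid overload and no mock peak, as did 432 coding genes in all. With 2 libraries no closer likeness could be measured.

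**Figure D5:**
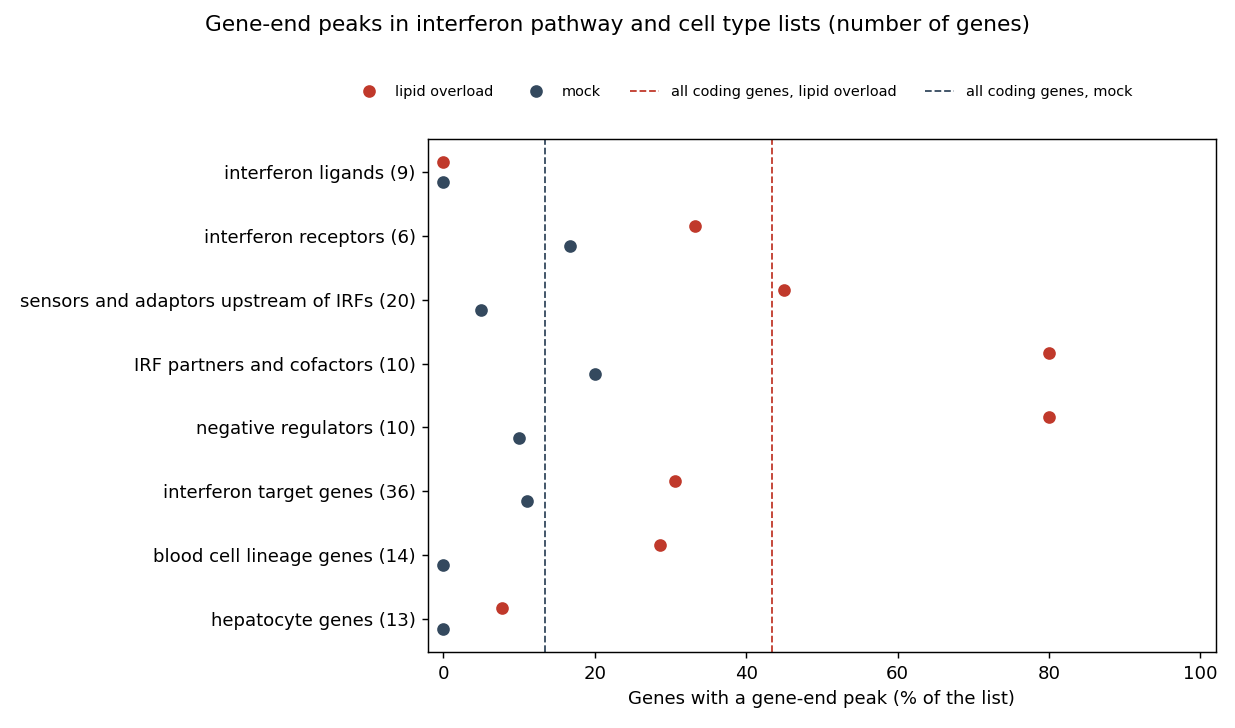
Share of each of 8 lists with a gene-end peak (%), lipid overload (red) above mock (dark), with dashed lines at the shares of all coding genes, 43.4% and 13.4%. Among the 8 lists drawn, the IRF partners and the negative regulators stand at 80% in lipid overload and the interferon genes at 0 in both; the signal transducer list is not drawn.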

How the data were processed

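Each γH2AX library has its own peak list, called per sample. The submitters' processing notes name BWA, FastQC, deepTools and MACS2 (2.1.2), and the build hg38. The sources used here do not give the settings or say whether a control library entered. Per peak the authors deposited a score, not used here, a fold (linear ratio), −log10 p and −log10 q. Fold and −log10 p were solved by the MACS2 formulas for whole fragments at the summit and the background there, a step tested on simulated data, and 100% of peaks came out whole within 0.0001 in log10 p. Relative depth is the ratio of genome backgrounds (0.289 in lipid overload, 0.121 in mock), each divided by its fragment length (124 and 137 bp). PCR copies are not independent molecules, so intervals cover counting error only.

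Genes are those of the RefSeq table of GRCh38.p14, without strand, on chromosomes 1 to 22 and X. Another 145 coding genes, placed over 1 Mb out of the table's order, were set aside. A peak counted where it shared at least 1 bp with a window. Named were all peaks at or in members, the highest flank peak per list, and per pathway list the 2 highest genes in lipid overload and up to 3 marked in mock. MX1, OAS1, IFIT1, RSAD2, SAMHD1, ISG15, OASL, EIF2AK2 and ADAR were added after their values were seen. So were the second PHRF1 peak and the peaks at PSME1, at EMC9, inside RNF31 and at MIR210HG. The signal transducer list holds an item that is not reported here, so no count is given for that list and it was left out of any order of the lists. Members and lists were chosen with earlier results of these data known. Alternatives changed thresholds, depth, list length, merging and windows. Python 3.11.15, numpy 2.4.6, scipy 1.17.1, pandas 2.3.3 and matplotlib 3.10.9 were used.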

Additional observations from a re-analysis of the deposited data

How the results depend on the processing

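The range of settings covered list thresholds, depth, list length, merging and window size, and the causes of the changes were not tested beyond the construction of each setting. IRF1 was marked at its end in lipid overload under every setting run. Members with a gene-end peak numbered 2 in lipid overload, also counted as lipid overload only, and became 4 with gene ends of 3 kb, which take in IRF2 and IRF3 (50.9% of all coding genes then), and 1 with lists of equal length, which drop IRF9 (25.9% then). In mock the number was 0 under all settings, but stricter thresholds, smaller windows or an unchanged mock list could not have raised it. Members with a peak within 50 kb in lipid overload fell to 4 at −log10 q of at least 5 and with lists of equal length, and to 5 at the mock depth against the genome background. They fell to 4 at the mock depth with each peak's own background, a setting chosen after seeing the data. In mock they fell to 1 at −log10 q of at least 5, 1 with a flank of 20 kb and 2 at a fold of at least 5. The shares of all coding genes under these flank settings are not given here, so these falls describe no trait of the members. The whole lipid-overload list fell from 27296 peaks to 10674 at −log10 q of at least 5 and to 8542 at equal length. The 38 lipid-overload peaks became 17 at −log10 q of at least 5, 22 at a fold of at least 5, 25 and 16 at the mock depth (genome and own background), 15 with equal lengths, 18 with a flank of 20 kb and 62 with one of 100 kb. The 7 mock peaks became 2, 3 and 1 at −log10 q, fold and 20 kb. Of 61 comparisons, 40 stayed within 1.5 times the number reported, but many of these could not have moved. The depth and equal-length settings left the mock list unchanged, and stricter thresholds cannot raise a count of 0. The counts for lipid overload only also repeated those for lipid overload. The 40 of 61 is therefore no measure of stability.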

Other observations

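A peak 26.8 kb above IRF7, at chr11:642714-642869, between DRD4 and DEAF1, had the same first and last base in both lists, which was so for 20 of the 27296 lipid-overload peaks (0.0733%). It held 27 fragments (17.8 to 39.3) in lipid overload and 22 (13.8 to 33.3) in mock, a ratio of 1.23 (0.673 to 2.26) whose interval lies below the relative depth of 2.62. Among the 7 mock peaks around members it was the highest.

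On the other side of IRF7, 43.7 kb away, a lipid-overload peak of 23 fragments (14.6 to 34.5) at chr11:568630-568841 lay at the ends of MIR210HG and MIR210, the host gene and gene of a microRNA known for its induction by low oxygen. No mock peak overlapped it.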
